A study of Homo sapiens with 6 samples.

Results

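Tenascin C and related matricellular proteins are secreted into the extracellular matrix, where they change how cells attach, spread and respond to growth factors. Here their genes were followed in MDA-MB231, a human breast cancer cell line. The 10 genes were TNC, THBS1, THBS2, CCN1, CCN2, SPARC, SPP1, FN1, POSTN and TGFBI, out of 18377 genes measured. They were chosen as a family by function, and TNC was picked for its range among the arrays, so its values are a description with no test. Each was read by 1 probe set, and none was shared with another named gene.

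Cells in one group carried the empty pTargeT plasmid, and cells in the other carried the same plasmid with GHSROS, a long noncoding RNA gene that lies antisense within the ghrelin receptor gene. Each group had 3 cultures, called biological replicates by the submitters, and each culture gave 1 Affymetrix Human Gene 1.0 array. Both groups were grown in DMEM/F12 with calf serum, penicillin and streptomycin, so the plasmid insert is the labelled difference. The sources used here do not say whether the cells were clones or pools, or how long after transfection they were harvested. Values are log2 expression per probe set, on which a difference of 1 is a 2-fold difference in signal, and the median probe set lay between 6.559 and 6.648 on the 6 arrays. The comparison asks whether GHSROS alters the levels of these genes.

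Most matricellular proteins bind integrins or other cell-surface receptors without being load-bearing parts of the matrix, and many loosen adhesion. CCN1 and CCN2 are widely used as readouts of YAP, a coactivator that binds DNA through TEAD proteins and answers to cell density, tension and serum. TNC, THBS1, TGFBI and FN1 are known to be induced by TGF-beta in many cell types. In breast cancer, TNC, POSTN and SPP1 are known for their part in invasion and metastatic growth.

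Each array was nearest to an array with the other vector, although not all arrays were closer across the vectors than within them. By the root mean square difference over all genes, empty-vector array 1 was nearest to GHSROS array 3 (0.189), array 2 to GHSROS array 2 (0.179) and array 3 to GHSROS array 1 (0.186), and the reverse held for each. GHSROS arrays 1 and 2 lay 0.199 apart, while empty-vector array 2 and GHSROS array 1 lay 0.241 apart. Empty-vector array 1 and GHSROS array 3 stood apart from the other arrays, the nearest of which lay at 0.299 and 0.32. A list of 20 mitosis genes was lowest on these arrays, at means of 10.15 and 10.16 against 10.98 to 11.19 on the others. These arrays were the lowest pair in 20 of 20 members, against 20.3% of all genes. ATF4 is a transcription factor that answers to amino acid shortage. A list of 20 of its target genes was highest on these arrays, at 10.07 and 10.12 against 9.17 to 9.58. They were the highest pair in 15 of 20 members, against 18.9% of all genes. The pair and the lists were chosen with earlier results of these data known. Such counts, here and in the related lists below, are thus a description. Of the cell markers, 7 of 7 measured mesenchymal genes lay above the array medians, VIM among them. VIM was at 13.15, 13.22 and 13.37 with the empty vector and at 13.12, 13.11 and 12.99 with GHSROS. Those groups did not overlap, and the log2 difference of -0.17 (SE 0.10) did not pass the test (limma adjusted p = 1). Of 9 luminal epithelial markers, 5 lay above the medians, with list means of 6.50 to 6.58 with the empty vector and 6.50 to 6.71 with GHSROS. In this list 0 passed the test, and the groups were apart for FOXA1 and CLDN3, both higher with GHSROS and named after their values were seen. Groups were also apart for the fibroblast marker DCN, lower with GHSROS, and the endothelial marker CLDN5, higher with GHSROS. Of all genes, 5.51% had groups without overlap. The epithelial cadherin gene CDH1 lay at 5.01 to 5.35 and the estrogen receptor gene ESR1 at 5.04 to 5.18, both below the medians, while EPCAM lay at 6.90 to 7.67. Fibroblast markers, 2 of 8 above the medians, had list means of 5.18 to 5.22 with the empty vector and 5.14 to 5.28 with GHSROS. PDGFRB was at 6.52 to 7.52. The endothelial marker PECAM1 was at 5.57 to 6.50 and 3 of 6 endothelial markers lay above the medians, with list means of 6.18 to 6.58 and 6.33 to 6.75. For leukocyte markers it was 1 of 7, with means of 5.71 to 5.86 and 5.68 to 5.86. Because bulk RNA was measured, a change in the number of cells of a kind and a change in RNA per cell cannot be told apart.

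The 250 bases before the RefSeq starts (assembly GRCh38.p14) of CCN2, THBS1, TNC and FN1 are shown first. These genes were picked after their array orders, described below, were seen. A link between the letters and those orders was not tested. Capitals mark matches, on either strand, to GGAATG (the letters bound by TEAD proteins), TGANTCA (AP-1) and CAGAC (the end of a SMAD element). The matches shown do not overlap each other.
CCN2 (chr6:131951373-131951622, minus strand): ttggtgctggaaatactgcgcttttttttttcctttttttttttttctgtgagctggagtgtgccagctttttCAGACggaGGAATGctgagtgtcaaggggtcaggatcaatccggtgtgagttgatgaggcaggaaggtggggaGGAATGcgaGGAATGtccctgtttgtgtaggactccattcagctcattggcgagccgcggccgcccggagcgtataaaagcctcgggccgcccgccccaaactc
THBS1 (chr15:39580829-39581078, plus strand): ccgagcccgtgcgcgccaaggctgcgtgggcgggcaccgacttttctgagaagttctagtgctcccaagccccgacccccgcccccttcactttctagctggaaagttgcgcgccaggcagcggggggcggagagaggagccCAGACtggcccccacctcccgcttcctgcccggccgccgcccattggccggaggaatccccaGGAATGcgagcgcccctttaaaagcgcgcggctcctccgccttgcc
TNC (chr9:115118158-115118407, minus strand): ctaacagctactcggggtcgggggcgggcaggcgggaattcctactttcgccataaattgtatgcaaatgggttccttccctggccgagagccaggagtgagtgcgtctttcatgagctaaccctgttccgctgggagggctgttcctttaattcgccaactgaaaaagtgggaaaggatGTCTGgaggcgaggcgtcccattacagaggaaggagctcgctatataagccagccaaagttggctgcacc
FN1 (chr2:215436069-215436318, minus strand): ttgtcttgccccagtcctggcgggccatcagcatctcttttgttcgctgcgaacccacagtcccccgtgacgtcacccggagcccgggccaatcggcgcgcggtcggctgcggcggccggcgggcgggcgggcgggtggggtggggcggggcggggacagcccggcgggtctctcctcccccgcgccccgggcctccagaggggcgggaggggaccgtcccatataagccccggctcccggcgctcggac
Upstream of CCN2, the letters GGAATG stood 3 times, beginning 169, 104 and 95 bases before the start. THBS1 held them once, at 46 bases. TNC held only CAGAC, read on the other strand, at 70 bases, and FN1 held none of the 3 motifs. Over the 9 members with a window in the table, GGAATG was found in 4 (THBS1, THBS2, CCN2 and SPARC), TGANTCA in 1 (POSTN) and CAGAC in 6. Among all 35116 windows of this length the shares were 11.9%, 6.57% and 38%. CCN1 had no entry. Of the 4 members with GGAATG, CCN2 and THBS1 were lowest on the pair of arrays that stood apart, THBS2 was highest there and SPARC was neither. TNC and SPP1 were lowest there without it. A match is a run of letters and not evidence of binding.

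Of the 9 members tested, 0 differed between the vectors in limma at an adjusted p under 0.05, and the background was 0% (percent of the 18377 genes called). At an unadjusted p under 0.05 it was 0 of 9 against 1.77% of all genes, and for all 9 members limma gave an adjusted p of 1. For 0 of the 10 members were the groups without overlap, where 5.51% of all genes had such groups, 3.06% with GHSROS higher and 2.44% with GHSROS lower. Adding the vector as a term left most of the spread: the share of variance between groups was from 0.097% for FN1 to 25.9% for SPP1, beside a median of 6.12% over all genes. The spread among arrays was wide. For 8 of the 10 members the range over the 6 arrays exceeded that of at least 84.4% of all genes, with THBS2 at 68.9% and POSTN at 15.2% as the exceptions. TNC is among the 8 by the choice made on its range, so its place in this count is no result.

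**Figure D1:**
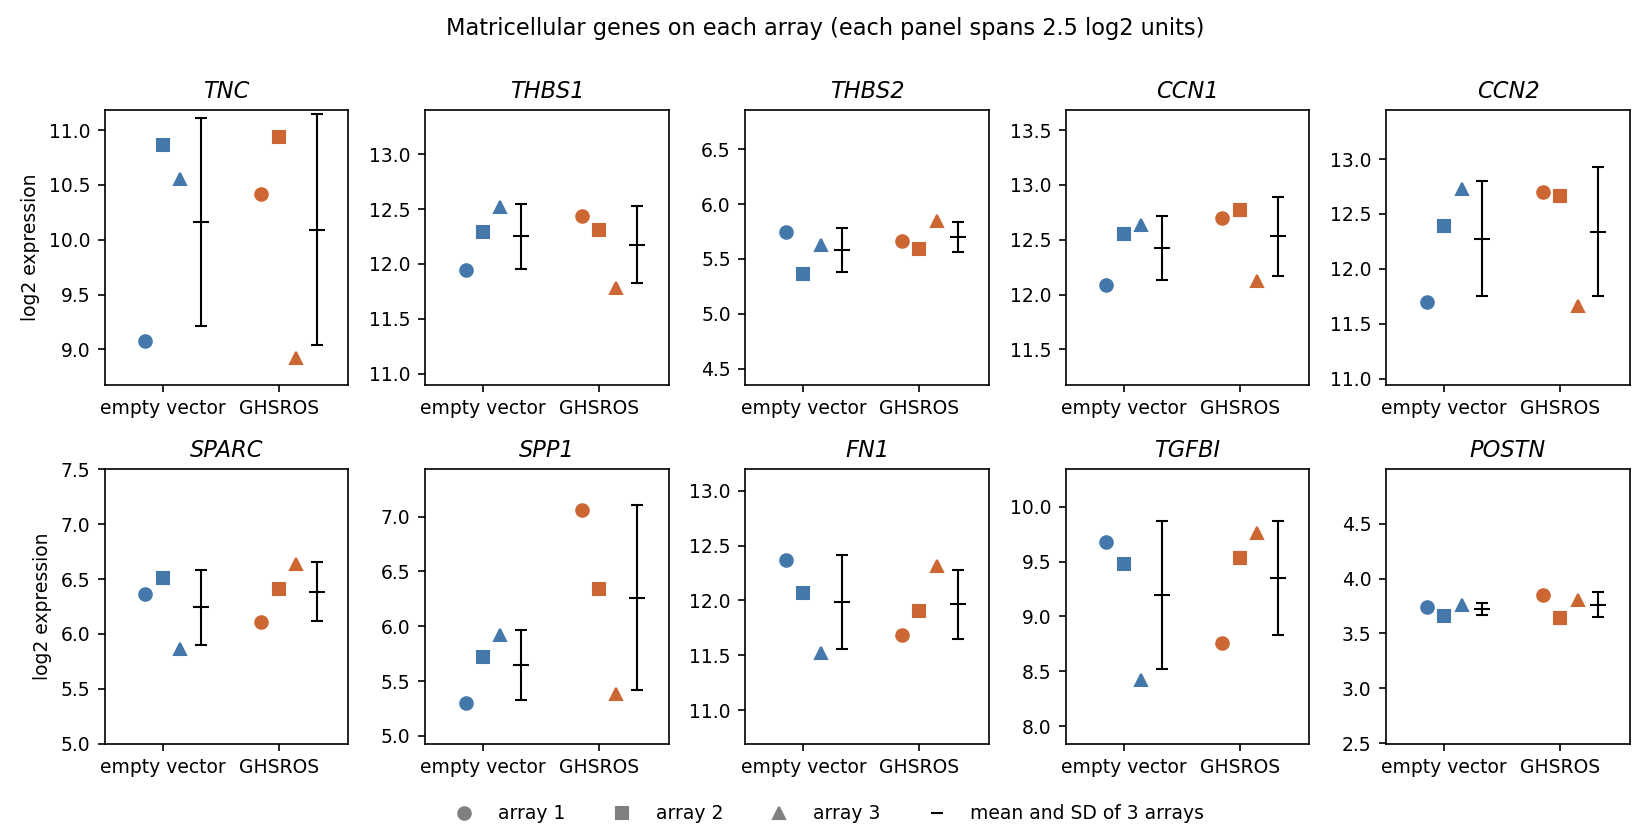
Log2 expression of the 10 genes on each array, with the empty vector in blue and GHSROS in orange, marker shapes for array numbers 1 to 3, and the mean with SD of 3 arrays in black. Each panel spans the same height, and in none do the groups separate. TNC runs from 8.92 to 10.94 while POSTN stays between 3.64 and 3.85.

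TNC encodes tenascin C, a many-armed glycoprotein of wound, embryonic and tumour matrix that weakens the hold of cells on fibronectin. Its log2 level was 9.08, 10.86 and 10.55 on empty-vector arrays 1, 2 and 3, and 10.42, 10.94 and 8.92 on GHSROS arrays 1, 2 and 3. One array of each group was low and the other four lay between 10.42 and 10.94, so the groups overlapped throughout. The range of 2.02 is a 4.06-fold span, exceeded by 74 of the 18377 genes, and it is the value TNC was picked for. The empty-vector mean was 10.16 ± 0.95 (SD, n = 3). The GHSROS mean was 10.09 ± 1.05 (SD, n = 3), and GHSROS minus empty vector was -0.07 (SE 0.63) on the log2 scale. The low arrays were those on which mitosis genes were low and ATF4 targets high, and the part of these in the level of TNC was not tested. Without both of these arrays the difference was -0.03 (SE 0.19), with a 95% confidence interval from -0.49 to 0.43, and the range over the remaining arrays was 0.52. That omission takes away the low values that make the range TNC was picked for. The SE and interval are thus narrower by construction and are a description. With only GHSROS array 3 left out the difference was 0.52 (SE 0.51), and with only empty-vector array 1 left out it was -0.62 (SE 0.55). The sign also turned without empty-vector array 2 (0.28) or 3 (0.12).

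CCN2, formerly connective tissue growth factor, promotes matrix deposition and adhesion through integrins and heparan sulfate. It lay at 11.70, 12.39 and 12.73 with the empty vector and at 12.70, 12.66 and 11.66 with GHSROS. The lowest arrays were again empty-vector array 1 and GHSROS array 3, and the highest were empty-vector array 3 and GHSROS array 1, 0.02 apart. The log2 difference between the groups was 0.07 (SE 0.36; 95% confidence interval -0.77 to 0.91). Without both arrays that stood apart it was 0.12 (SE 0.14; interval -0.21 to 0.46). That omission takes away the lowest arrays for this gene and leaves 2 per group, so the interval is narrower by construction. The direction turned to -0.22 without empty-vector array 1, and without GHSROS array 3 the difference was 0.41.

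CCN1, formerly CYR61, is the close relative of CCN2 and an early serum-responsive gene. Its values were 12.09, 12.55 and 12.63 with the empty vector and 12.70, 12.77 and 12.12 with GHSROS. The lowest pair was the same as for CCN2, and the other four arrays lay within 0.22 of each other. Means were 12.42 ± 0.29 and 12.53 ± 0.36 (SD, n = 3), a log2 difference of 0.11 (SE 0.21; interval -0.40 to 0.61). It was 0.14 (SE 0.11; interval -0.12 to 0.41) without both arrays that stood apart. With GHSROS array 3 alone left out it was 0.31, and with empty-vector array 1 alone left out it turned to -0.06.

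THBS1 encodes thrombospondin 1, which inhibits new vessel growth and can activate latent TGF-beta. It was at 11.94, 12.29 and 12.52 with the empty vector and at 12.44, 12.31 and 11.78 with GHSROS. The order of the arrays was the one seen for CCN2, with empty-vector array 3 highest and GHSROS array 3 lowest. In both genes empty-vector array 3 and GHSROS array 1 were the highest pair, as in 16.8% of all genes. The log2 difference was -0.07 (SE 0.21; interval -0.58 to 0.43), and -0.03 (SE 0.13; interval -0.33 to 0.28) without both arrays that stood apart. Without GHSROS array 3 alone it was 0.13, and without empty-vector array 1 it was -0.23. Profiles centred on their own means differed least, of all pairs of members, between THBS1 and CCN1, by a root mean square of 0.116. Next were THBS2 and POSTN at 0.121, the members with the narrowest ranges. CCN1 and CCN2 differed by 0.2, THBS1 and CCN2 by 0.211 and TNC and CCN2 by 0.438. The measure depends on the ranges of the genes, so a small value need not mean a shared order.

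FN1 encodes fibronectin, the adhesive glycoprotein that integrins assemble into fibrils and that TNC interferes with. On this gene the arrays ran the other way. It was highest on empty-vector array 1 (12.37) and GHSROS array 3 (12.31), at 12.07 and 11.90 on empty-vector array 2 and GHSROS array 2, and lowest on empty-vector array 3 (11.52) and GHSROS array 1 (11.69). The means were 11.99 ± 0.43 and 11.97 ± 0.31 (SD, n = 3). The log2 difference of -0.02 (SE 0.25; interval -0.60 to 0.56) turned to 0.01 under quantile normalization, and was 0.00 (SE 0.19) without both arrays that stood apart. It was 0.17 without empty-vector array 1 and -0.19 without GHSROS array 3.

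TGFBI, a fasciclin domain protein named for its induction by TGF-beta, binds collagen and integrins. Its levels were 9.68, 9.48 and 8.42 with the empty vector and 8.76, 9.53 and 9.76 with GHSROS. Here empty-vector array 3 and GHSROS array 1 were low, and the other four lay between 9.48 and 9.76. The range of 1.35 was larger than that of 97.9% of genes, and the log2 difference between the vectors was 0.16 (SE 0.38; interval -0.75 to 1.07). It was 0.20 (SE 0.37) without both arrays that stood apart. It turned to -0.23 without empty-vector array 3, and was 0.46 without GHSROS array 1.

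SPARC, which binds collagen and hinders cell spreading, showed the same lowest arrays at a level below the median probe set on every array. The values were 6.36, 6.51 and 5.86 with the empty vector and 6.11, 6.41 and 6.64 with GHSROS. The log2 difference was 0.14 (SE 0.20; interval -0.34 to 0.63), and 0.08 (SE 0.22) without both arrays that stood apart. It turned to -0.05 without empty-vector array 3. In SPARC, FN1 and TGFBI, empty-vector array 3 and GHSROS array 1 were the lowest pair, an order held by 11.8% of all genes.

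The pair that stood apart overall was the lowest in 5 of 10 members (TNC, THBS1, CCN1, CCN2 and SPP1), an order shown by 20.3% of all genes, and the highest in 3 (THBS2, FN1 and TGFBI), against 18.9% of all genes. The orders of these 8 members were unchanged by quantile normalization and by centring each array on its median. They follow arrays that were singled out over all genes, so the counts are a description. Between arrays nearest to each other across the vectors, TNC differed by at most 0.16, or 7.9% of its range. The same share was 20.2% for FN1, 22.4% for THBS1, 25.4% for CCN2 and 25.5% for TGFBI, with a median of 54.1% over all genes. A gene with a wide range tends to have a small share. The share of TNC is no result, since TNC was picked for its range and the pairs were nearest in these data.

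**Figure D2:**
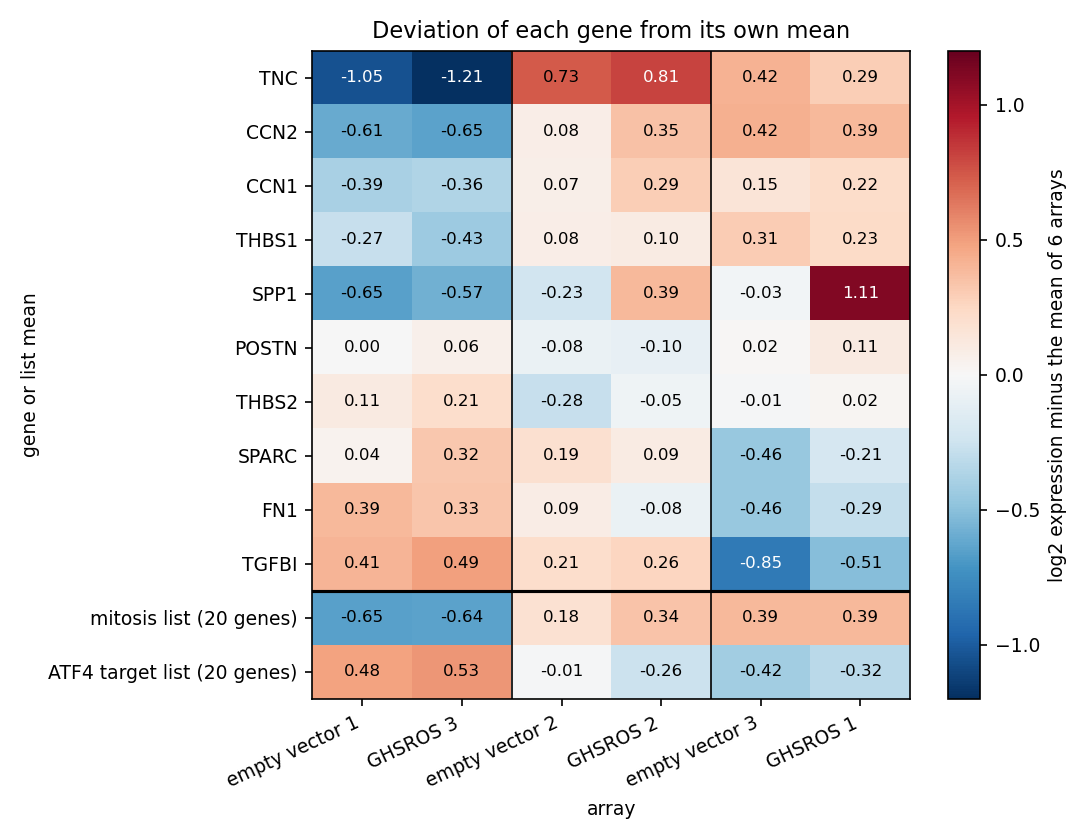
Log2 expression of each gene minus its own mean over 6 arrays, with arrays nearest to each other over all genes side by side and the mitosis and ATF4 lists below the line. TNC, CCN2, CCN1 and THBS1 are low on empty-vector array 1 and GHSROS array 3, as is the mitosis list (10.15 and 10.16), while FN1 and TGFBI are high there.

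SPP1 encodes osteopontin, a phosphorylated ligand of integrins and CD44 that is known from bone and from metastatic tumours. It was at 5.30, 5.72 and 5.92 with the empty vector and at 7.06, 6.34 and 5.38 with GHSROS. GHSROS arrays 1 and 2 were above every empty-vector array, and GHSROS array 3 lay among them, below 2 of the 3. The probe set was below the array medians on all arrays except GHSROS array 1, and how far these values lie above background was not tested. The log2 difference of 0.62 (SE 0.40; interval -0.34 to 1.57) is 1.53-fold, the widest difference between the vectors among the 10 members, and did not pass the test (limma adjusted p = 1, unadjusted p = 0.171). Without both arrays that stood apart it was 0.88 (SE 0.23; interval 0.35 to 1.42), with a limma unadjusted p of 0.006 and an adjusted p of 1, after an omission of the lowest arrays for this gene. Single arrays moved it further. It was 1.06 (SE 0.26) when GHSROS array 3 was left out and 0.21 (SE 0.32) when GHSROS array 1 was, with limma adjusted p-values of 1 in both.

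In SPP1 the gaps between neighbouring arrays were also unlike those of the other members. GHSROS array 1 lay 1.15 above empty-vector array 3 and GHSROS array 2 lay 0.62 above empty-vector array 2, while GHSROS array 3 was 0.08 above empty-vector array 1. The largest of these is 64.9% of the range of SPP1, against 54.1% for the median gene. All 3 had the same sign, as they had in CCN1, THBS2 and TGFBI. The arrangement in pairs came from the data, so no test was made.

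THBS2, the second thrombospondin with anti-angiogenic activity, was dim, at 5.75, 5.36 and 5.63 with the empty vector and 5.66, 5.59 and 5.85 with GHSROS. Its log2 difference was 0.12 (SE 0.13; interval -0.18 to 0.43), and 0.13 (SE 0.13) without both arrays that stood apart. It was 0.01 without empty-vector array 2 and 0.048 without GHSROS array 3. POSTN, the gene of periostin, a fasciclin domain protein of tumour stroma, lay between 3.64 and 3.85 on the 6 arrays, and only 2.91% of genes had a lower mean level. Its log2 difference was 0.04 (SE 0.09; interval -0.18 to 0.26), and whether it is expressed in these cells cannot be read from such values.

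**Figure D3:**
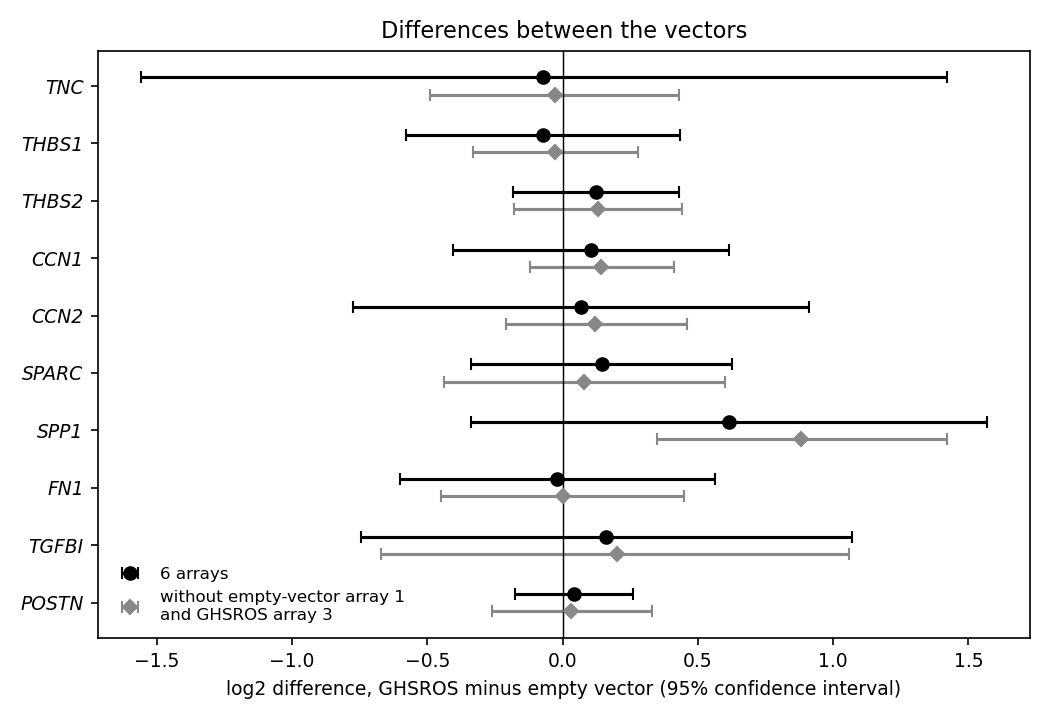
Log2 difference between GHSROS and the empty vector for each gene with its 95% confidence interval from limma, over 6 arrays (black circles) and without empty-vector array 1 and GHSROS array 3 (grey diamonds). Over 6 arrays every interval holds 0, and the intervals of TNC are a description, since it was picked for its range. Without both arrays, which hold the lowest values of TNC and SPP1, the interval of SPP1 runs from 0.35 to 1.42 and that of TNC from -0.49 to 0.43.

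The wider families of these proteins held 22 other measured genes, of which 0 passed the test in limma in either direction, 15 were above 0 and 7 below, with a median log2 difference of 0.03 beside 0.0019 for all genes. THBS4 differed by 0.23 (SE 0.12) at a dim 5.57 with the empty vector. THBS3, at 6.55, 5.92 and 5.29 with the empty vector and 5.61, 5.95 and 6.44 with GHSROS, differed by 0.08 (SE 0.34). On this gene empty-vector array 1 and GHSROS array 3 were highest, where on THBS1 they were lowest. Among the 22 relatives that pair was the lowest in 1 and the highest in 5, against 20.3% and 18.9% of all genes. Only 4 of the 22 lay above the array medians, and how far the others lie above background was not tested. Small differences in such dim genes do not show steady expression. TNR differed by -0.10 (SE 0.11), CCN5 by -0.09 (SE 0.14) and SMOC2 by 0.16 (SE 0.12). SPOCK1 differed by 0.06 (SE 0.13), IBSP by 0.05 (SE 0.09), STAB1 by 0.05 (SE 0.10) and STAB2 by 0.02 (SE 0.11). TNXB was not analysed here.

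Among 21 receptors of these proteins, 0 passed in either direction, with 13 above 0, 8 below and a median log2 difference of 0.01. LRP1, the endocytic receptor that clears thrombospondins, was at 9.86, 8.92 and 7.49 with the empty vector and at 7.60, 8.26 and 9.27 with GHSROS, a difference of -0.38 (SE 0.65). ITGB3, the beta chain of the vitronectin receptor, which also binds SPP1 and TNC, was at 9.49, 8.18 and 7.46 and at 8.07, 8.20 and 9.66, a difference of 0.27 (SE 0.60). Both were highest on empty-vector array 1 and GHSROS array 3, the arrays on which TNC and SPP1 were lowest, and 10 of the 21 receptors had that order, against 18.9% of all genes. SDC4 was not analysed here.

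YAP and TEAD machinery, 15 genes, also had 0 past the test in either direction, with 8 above 0 and 7 below and a median log2 difference of 0.00. TEAD2 differed by -0.13 (SE 0.08) with the groups apart, and LATS1, a kinase that inhibits YAP, by 0.08 (SE 0.09). TEAD4 was lowest on the pair that stood apart (9.0 and 8.91, against 9.46 to 9.67), and VGLL4, which competes with YAP for TEAD, was highest there (8.89 and 8.87, against 8.13 to 8.31). The differences of these last between the vectors were -0.06 (SE 0.23) and 0.01 (SE 0.26). Among the 15 genes the pair was the lowest in 5 and the highest in 3, against 20.3% and 18.9% of all genes.

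Of 21 YAP targets other than the members, 0 passed in either direction, with 9 above 0, 12 below and a median log2 difference of -0.01. For 11 of the 21, empty-vector array 1 and GHSROS array 3 were the lowest pair, the order of CCN1 and CCN2, beside 20.3% of all genes. F3, the tissue factor gene, was at 9.26, 9.78 and 10.32 with the empty vector and at 10.25, 10.11 and 9.52 with GHSROS, and WWC1 at 9.02, 9.95 and 9.93 and at 9.87, 10.08 and 9.27. Their differences between the vectors were 0.17 (SE 0.30) and 0.11 (SE 0.31). NUAK2 differed by 0.31 (SE 0.19) and IGFBP3 by -0.18 (SE 0.15). ANKRD1, a strong YAP target named after its values were seen because its groups did not overlap, differed by -0.13 (SE 0.08) and spanned only 12.99 to 13.24 over the 6 arrays.

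TGF-beta and SMAD targets other than the members, 19 measured, had 0 past the test in either direction, 11 above 0 and 8 below, with a median log2 difference of 0.01. The pair that stood apart was the highest in 12 of 19, the order of FN1 and TGFBI, against 18.9% of all genes. In TNC and THBS1, also named above as induced by TGF-beta, the same pair was the lowest. IL11, a cytokine of bone metastasis, likewise had that pair lowest and differed between the vectors by 0.49 (SE 0.37). BHLHE40 differed by 0.31 (SE 0.45) and LTBP3, which holds latent TGF-beta in the matrix, by 0.01 (SE 0.63). LTBP3 was at 10.75 and 10.77 on the pair and at 8.82 to 9.28 on the others. Of 15 SRF and MRTF targets 0 passed in either direction, with 9 above 0, 6 below and a median log2 difference of 0.02. Among these 15 the pair that stood apart was the lowest in 3 and the highest in 3, against 20.3% and 18.9% of all genes. ACTG2, a smooth muscle actin gene, differed by 0.42 (SE 0.19) and TPM2, a tropomyosin gene, by -0.13 (SE 0.24). FLNA was not analysed here.

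Other matrix genes gave 0 past the test as well. In the list of fibronectin, fibulins and other glycoproteins, 14 of 24 were above 0 and 10 below, with a median log2 difference of 0.04. MATN2, which encodes matrilin 2, was at 6.91, 7.0 and 7.10 with the empty vector and at 6.58, 6.60 and 6.78 with GHSROS. Those groups were apart, and the difference of -0.35 (SE 0.10) had a limma unadjusted p of 0.00883 and an adjusted p of 1. EFEMP1, a fibulin, differed by 0.30 (SE 0.28). LTBP1 differed by -0.10 (SE 0.52) and was highest on the pair that stood apart, at 10.13 and 9.72 against 8.13 to 9.11. Over all 154 measured genes related to the members, the groups did not overlap for 6, FBLN5, FBN2 and MFAP5 higher with GHSROS and MATN2, TEAD2 and ANKRD1 lower, beside 5.51% of all genes. FBLN5, FBN2 and MFAP5 were named after their values were seen and differed by 0.25 (SE 0.11), 0.10 (SE 0.08) and 0.13 (SE 0.09).

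Collagens and the enzymes that crosslink them, 21 genes, had 15 above 0 and 6 below, 0 past the test in either direction, and a median log2 difference of 0.04. LOX, the lysyl oxidase that crosslinks collagen, was at 11.14, 10.25 and 9.82 with the empty vector and at 9.71, 9.78 and 11.14 with GHSROS. Its relative LOXL4 was at 8.78, 8.08 and 7.41 and at 6.98, 7.45 and 8.28. Both were highest on the pair that stood apart, as were 10 of the 21 genes of the list, against 18.9% of all genes. The vectors differed by -0.19 (SE 0.47) in LOX and -0.52 (SE 0.42) in LOXL4. COL6A2 differed by 0.23 (SE 0.15).

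The genes with profiles most like TNC were sought by the root mean square difference from it over the 6 arrays, each gene centred on its own mean, among 18376 genes. MARCHF4, a membrane-bound ubiquitin ligase gene, was nearest at 0.102, with 8.36, 9.92 and 9.87 on the empty-vector arrays and 9.79, 10.17 and 8.25 on the GHSROS arrays. Next were the phosphodiesterase gene PDE1C (0.161), the mitochondrial arginase gene ARG2 (0.175), FREM2, which encodes a basement membrane protein (0.219), and LOC399975, a noncoding RNA gene (0.23). In all 5, empty-vector array 1 and GHSROS array 3 were the lowest, and their log2 differences between the vectors ran from -0.05 to 0.08. Genes picked for closeness to the values of TNC share its lowest arrays and its small difference by construction. Both are thus a description. Of the other members CCN2 ranked nearest to TNC, at place 151, then CCN1 at 599, THBS1 at 843 and SPP1 at 1422. FN1 and TGFBI stood at 17443 and 17880, near the far end. Without both arrays that stood apart, 0 of these 5 genes were among the 5 nearest, so the likeness rests on those arrays.

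**Figure D4:**
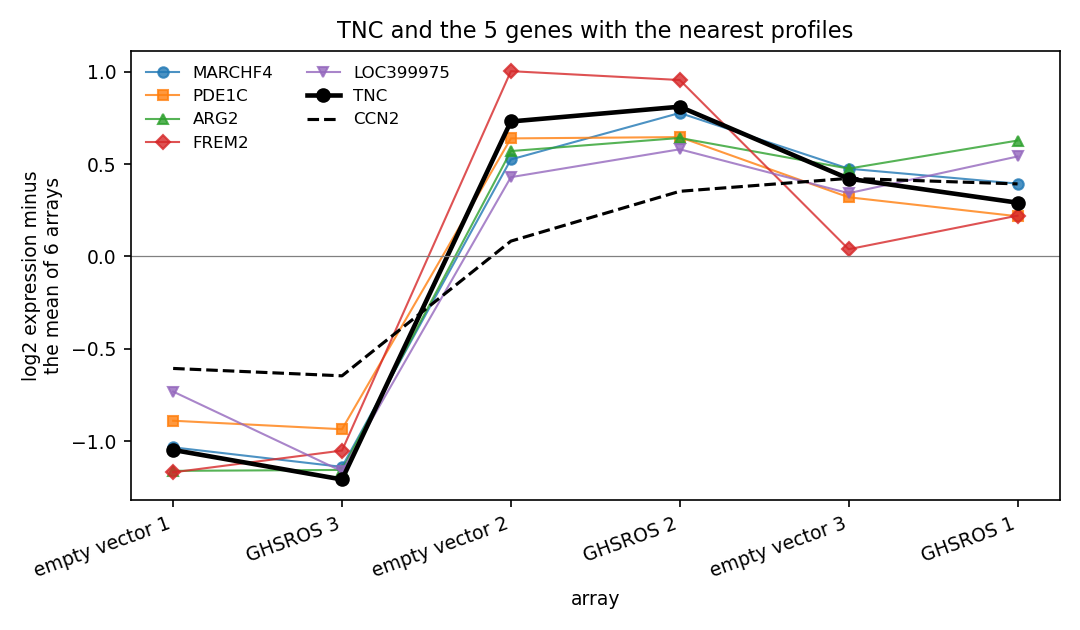
Log2 expression minus the mean of 6 arrays for TNC (thick black line), the 5 genes with the smallest root mean square difference from it (0.102 to 0.23) and CCN2 (dashed). All 7 genes are lowest on empty-vector array 1 and GHSROS array 3, which for the 5 follows from their choice by closeness to TNC. Arrays are ordered so that those nearest over all genes are side by side.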

How the data were processed

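The authors deposited log2 expression values per probe set, and the submitters' processing notes name RMA. Its version and steps, and any filter on probe sets, were not given in the sources used here. As usually run, RMA quantile normalizes arrays, which hides a shift shared by most genes. Of 28869 probe sets, 19310 had 1 gene symbol in the platform annotation, checked by Entrez identifier against RefSeq (GRCh38.p14). The brightest probe set of each of 18377 genes was kept. Arrays carry no read depth, and 3 per group limit the precision.

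Groups and replicate numbers are those of the sample titles. Levels were tested with limma 3.58.1 in R 4.3.3 (lmFit, eBayes, a term for the vector, two-sided, Benjamini-Hochberg adjustment over all genes, threshold 0.05), after tests on simulated data. If cultures were not grown separately, p-values cover only the spread among these samples. Members, lists, tests, alternatives and the pair of arrays left out together were chosen with earlier results of these data known. Named genes were the members, the 5 nearest to TNC, and in each related list the 2 largest differences and the 2 widest ranges. Alternatives were a replicate block, other scalings, level filters, other uses of probe sets, a trended robust prior, array weights and omission of arrays.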

Additional observations from a re-analysis of the deposited data

How the results depend on the processing

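Under each alternative, 0 of 18377 genes, 0 of the 9 tested members and 0 related genes passed an adjusted p of 0.05 in limma (filters and probe set choices change the number of genes tested). The count at an unadjusted p under 0.05, 325 as reported, was 187 and 76 with filters at the 25th percentile and the median of level, which test fewer genes, 877 with array weights and 191 without GHSROS array 1. With the replicate number as a block it was 223. Deviations of same-numbered arrays correlated over genes at -0.714, 0.504 and -0.669 for numbers 1, 2 and 3. The arrays numbered 2 correlated best with their own number, and those numbered 1 and 3 did not.

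THBS2 and SPP1 kept their direction in all alternatives run on them. Others turned. FN1 was 0.012 after quantile normalization and 0.0007 without both arrays that stood apart. With array weights THBS1 was 0.050, SPARC -0.091 and TGFBI -0.19. Leaving out 1 array at a time, log2 differences ran from -0.62 to 0.52 for TNC, -0.060 to 0.31 for CCN1, -0.22 to 0.41 for CCN2, -0.23 to 0.13 for THBS1, -0.25 to 0.17 for FN1, -0.225 to 0.457 for TGFBI, -0.047 to 0.28 for SPARC and -0.0032 to 0.10 for POSTN. These turns came when arrays were left out or reweighted, and for FN1 also on quantile normalization, and their cause was not tested. In each member that turned, the difference over 6 arrays was smaller than its SE. Members below a filter on level have no value under it. Of the 5 genes nearest to TNC, 2 remained when dimmer genes were filtered at the median level, 0 without both arrays that stood apart, and 3 to 4 when 1 array was left out. Probe sets below the array medians (THBS2, SPARC, POSTN and, on 5 of 6 arrays, SPP1) have an unknown signal over background, which limits what their differences show.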
